A study of Mus musculus with 6 samples.

Results

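The 9 genes described here are those by which mast cells are usually recognised in tissue RNA: the granule proteases *Cma1*, *Mcpt4*, *Cpa3* and *Tpsb2*, the receptor genes *Kit*, *Ms4a2* and *Fcer1a*, the histamine enzyme gene *Hdc*, and the transcription factor gene *Gata2*. They were found by gene symbol in the authors' normalized table and joined to the raw counts by Ensembl identifier, 9 genes of the 51912 in the count table. The normalized table held 8 of them, and *Fcer1a* was found by its identifier in the raw counts alone. Because this set was put together with the contrast between the genotypes already known, every difference below is given as a description and not as evidence that mast cell genes differ.

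RNA came from the soleus, a slow-twitch calf muscle, of C57BL6/N mice aged 8 weeks. There were 3 mice heterozygous for the *Mustn1* KO-first allele (HET) and 3 wild-type (WT) littermates, with 1 poly-A library per mouse. The allele, tm1a, is a gene trap: transcripts that start in *Mustn1* are spliced into a lacZ and neomycin resistance cassette after exon 1. It is present in the whole body with no Cre driver, and it can leave some expression in certain conditions. By the study's methods the line also carried the agouti allele A tm1Brd and was selected against the albino allele Tyr c. The labels give no treatment for either group. Which mice shared a litter is not given, so a spread below is the spread between these mice.

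Where 3 values follow a genotype below, they are those of mice 1, 2 and 3 in this order. Reads on genes numbered 26790075 to 42014866 in the HET and 28891513 to 50368796 in the WT libraries. The targeted gene *Mustn1* gave 471, 452 and 574 reads in the HET libraries and 691, 817 and 1504 in the WT libraries (log2 fold change −0.96, standard error 0.15, adjusted p = 0.0452, edgeR's quasi-likelihood test). The genotype labels therefore held. Muscle fiber markers summed to between 71197 and 84089 normalized counts (CPM, reads scaled to the library's total with TMM factors) in every library. The labels call the mice male, while each library held 3858 to 9154 reads on *Xist* and at most 12 on 4 genes of the Y chromosome in total. This was so in both genotypes.

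Mast cells are resident immune cells of connective tissue that lie along vessels and nerves, and in muscle they sit mainly in the perimysium and around arterioles. Their granules store histamine, heparin and proteases: chymases, which cut after aromatic residues, tryptases, which cut after basic ones, and carboxypeptidase A3, which trims C-terminal ends. Stem cell factor acting through Kit keeps the cells alive, and IgE bound to its high-affinity receptor FcεRI triggers release of the granules. In RNA from a whole muscle, fewer mast cells and less RNA per mast cell cannot be told apart.

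The sequences upstream of 4 of the genes are given first, marked for GATA sites. One of the 9 genes, *Gata2*, encodes a factor that binds such sites. Its part in the difference of the protease genes was not tested. Each run holds the 250 bases before the gene's start in RefSeq, genome build GRCm38.p6, read 5′ to 3′ on the gene's own strand, which is the minus strand for all 4. Capitals mark the GATA site letters TGATAA or AGATAA, looked for on both strands (TTATCA and TTATCT in the run when the site is on the other strand). The windows are chr14:55944676-55944925 for *Cma1*, chr14:56062311-56062560 for *Mcpt4*, chr3:20242182-20242431 for *Cpa3* and chr19:11623720-11623969 for *Ms4a2*.
Cma1: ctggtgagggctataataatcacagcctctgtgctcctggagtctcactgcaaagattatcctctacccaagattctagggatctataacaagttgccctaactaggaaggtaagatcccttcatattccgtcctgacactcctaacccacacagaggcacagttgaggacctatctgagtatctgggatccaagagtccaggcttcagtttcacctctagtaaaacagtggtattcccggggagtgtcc
Mcpt4: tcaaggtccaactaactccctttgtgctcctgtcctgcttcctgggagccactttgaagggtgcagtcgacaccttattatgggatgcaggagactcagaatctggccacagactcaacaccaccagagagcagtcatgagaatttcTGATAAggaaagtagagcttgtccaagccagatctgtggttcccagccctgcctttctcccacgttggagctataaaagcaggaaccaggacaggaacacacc
Cpa3: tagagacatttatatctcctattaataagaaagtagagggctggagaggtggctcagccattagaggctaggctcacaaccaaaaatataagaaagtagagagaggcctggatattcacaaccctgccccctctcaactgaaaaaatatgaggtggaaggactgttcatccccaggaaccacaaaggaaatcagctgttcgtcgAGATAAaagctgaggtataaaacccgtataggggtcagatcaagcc
Ms4a2: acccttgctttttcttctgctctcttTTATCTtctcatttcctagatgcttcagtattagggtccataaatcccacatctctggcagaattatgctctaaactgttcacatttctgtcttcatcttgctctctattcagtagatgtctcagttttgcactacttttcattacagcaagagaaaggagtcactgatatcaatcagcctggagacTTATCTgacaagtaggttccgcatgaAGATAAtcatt
The *Mcpt4* window held TGATAA with its first base 103 bases before the start, and the *Cpa3* window held AGATAA 46 bases before it. The *Ms4a2* window held AGATAA at 3 places, on the other strand at 224 and 37 and on the gene's strand at 11 bases before the start. *Cma1* held neither of these forms, and other forms of a GATA site were not looked for in any window. The table has 10 windows for 8 of the genes and none for *Tpsb2*. Of these 10 windows, 4 held TGATAA or AGATAA, *Fcer1a* being the other gene, against 16.6% of all 32851 windows of this length before RefSeq gene starts. TGATAA alone was in 7.94% and AGATAA alone in 9.99% of them; these motifs share their last 5 letters, so each place counts for only one of them. CATGTG, the E-box letters that MITF can bind, was in 12.3% of all windows and in 1 of these 10, that of *Fcer1a*. A match to these letters is a description of the sequence, and no binding was measured.

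All 4 granule protease genes had more reads in every HET mouse than in every WT mouse, by 3.70-fold to 7.75-fold, at levels of about 1 CPM in HET mice. The receptor gene *Kit* and the transcription factor gene *Gata2*, which cells other than mast cells also express, overlapped between the genotypes. *Hdc* lay between these patterns, and the FcεRI genes *Ms4a2* and *Fcer1a* were near the limit of detection. Of the 9 genes, 7 had enough reads to be tested, and 5 of these 7 were higher in every HET than in every WT mouse, as were 7.55% of the 14696 genes tested. None of the 7 was lower in every HET mouse, as were 6.02% of all genes tested.

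**Figure D1:**
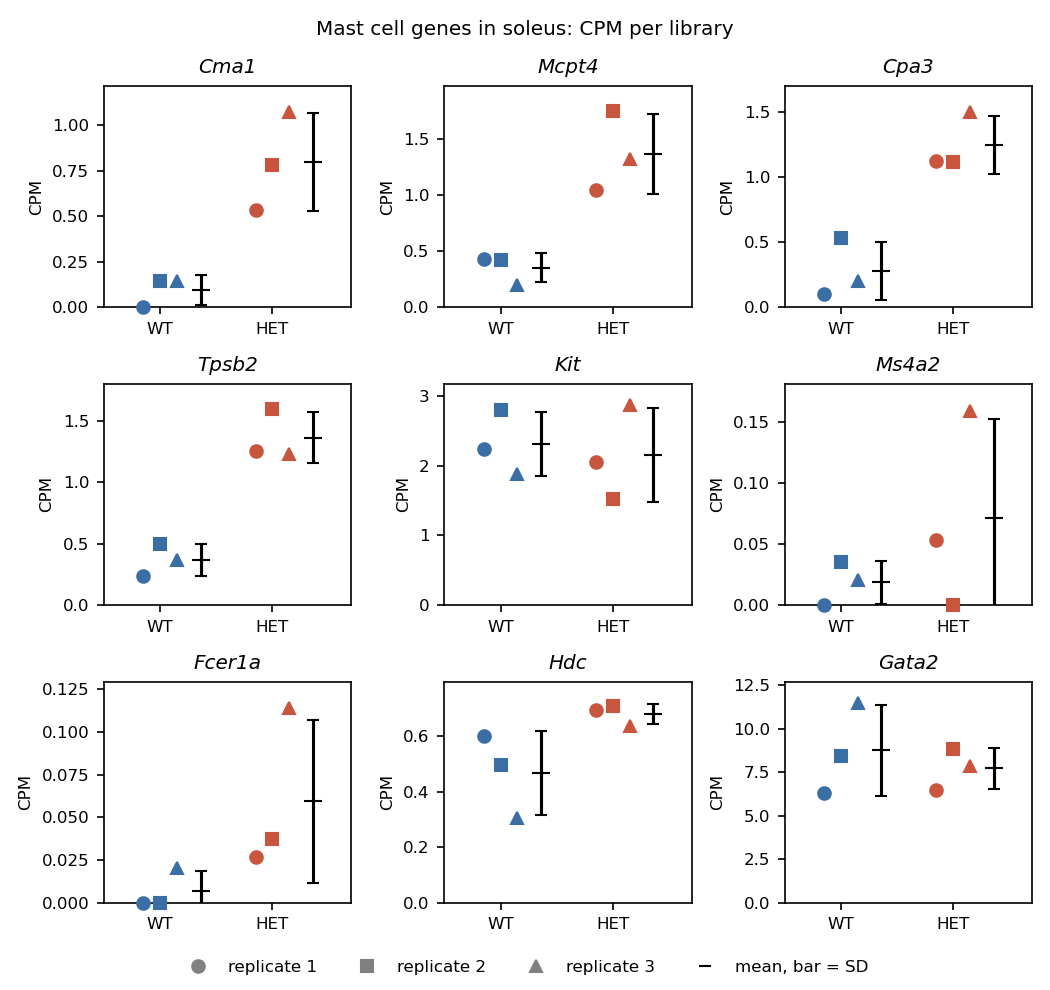
Normalized counts (CPM, y axes from 0, a scale of its own for each gene) of the 9 genes in each library, WT in blue and HET in red. Marker shape gives the replicate number, and the bar beside each group is the mean ± SD (n = 3), cut at 0 where it would pass below. The red points lie above all blue points for the 4 proteases, *Hdc* and *Fcer1a*, and their range overlaps that of the blue points for *Kit* and *Gata2*.

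*Cma1* (ENSMUSG00000022225) encodes mast cell protease 5, a protease of the chymase family stored in granules of connective tissue mast cells. It lies on chromosome 14 from 55941453 to 55944661 on the minus strand, with 5 exons. It gave 20, 21 and 47 reads in the HET libraries and 0, 4 and 7 in the WT libraries. WT mouse 1 had no read, which allows up to 3 reads or 0.1003 CPM, and the lowest HET mouse stood above the highest WT mouse. HET mice averaged 0.796 ± 0.269 CPM and WT mice 0.0946 ± 0.0819 CPM (SD, n = 3 each), and the log2 fold change was 2.95 (standard error 0.61), or 7.75-fold.

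*Mcpt4* (ENSMUSG00000061068), the main chymase of mouse connective tissue mast cells, lies 115.1 kb further along the same chromosome, from 56059744 to 56062310 on the minus strand, with 5 exons. The HET libraries held 39, 47 and 58 reads and the WT libraries 13, 12 and 10. No WT mouse had as many reads as any HET mouse. HET mice averaged 1.37 ± 0.357 CPM and WT mice 0.354 ± 0.132 CPM (SD, n = 3 each), and the log2 fold change was 1.99 (standard error 0.39), or 3.98-fold.

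*Cpa3* (ENSMUSG00000001865) encodes carboxypeptidase A3, whose storage depends on heparin and on mast cell protease 5. It lies on chromosome 3 from 20215620 to 20242181 on the minus strand, with 11 exons. It gave 42, 30 and 66 reads in the HET libraries and 3, 15 and 10 in the WT libraries. WT mouse 2 was the highest and WT mouse 1 the lowest of the controls, and both lay under all HET mice. The levels were 1.25 ± 0.222 CPM (SD, n = 3) in HET and 0.278 ± 0.226 CPM (SD, n = 3) in WT mice, and the log2 fold change was 2.21 (standard error 0.47), or 4.64-fold. WT mouse 2 set much of this value, and without it the log2 fold change was 2.94.

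*Tpsb2* (ENSMUSG00000033825) encodes a tryptase of connective tissue mast cells, known as mast cell protease 6. It lies on the plus strand of chromosome 17 from 25366550 to 25368094, with 5 exons. The HET libraries held 47, 43 and 54 reads and the WT libraries 7, 14 and 18. The HET mice were close to each other and all above the WT mice. HET mice averaged 1.36 ± 0.208 CPM and WT mice 0.365 ± 0.131 CPM (SD, n = 3 each), and the log2 fold change was 1.89 (standard error 0.34), or 3.70-fold.

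Summed over the 4 proteases, the libraries held 148, 141 and 225 reads in HET mice 1 to 3 and 23, 45 and 45 reads in WT mice 1 to 3. In CPM, the sum was 4.78 ± 0.717 in HET and 1.09 ± 0.442 in WT mice (SD, n = 3 each). The lowest HET mouse had 3.95 CPM and the highest WT mouse 1.60 CPM. Against *Kit* in the same library, the summed protease CPM was 1.79 to 3.44 times the *Kit* CPM in HET and 0.343 to 0.570 times in WT mice.

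The make-up of the protease reads was alike in the HET mice. *Tpsb2* took 24.0% to 31.8% of them, *Mcpt4* 25.8% to 33.3%, *Cpa3* 21.3% to 29.3% and *Cma1* 13.5% to 20.9%. In the WT mice the shares rested on few reads and spread more widely, with *Mcpt4* between 22.2% and 56.5% and *Cma1* between 0 and 15.6%. The 95% Wilson interval for the *Cma1* share reached 14.3% in WT mouse 1, where it had 0 of 23 reads, and in HET mouse 1 it ran from 8.921% to 19.95%. These intervals cover counting error only.

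**Figure D2:**
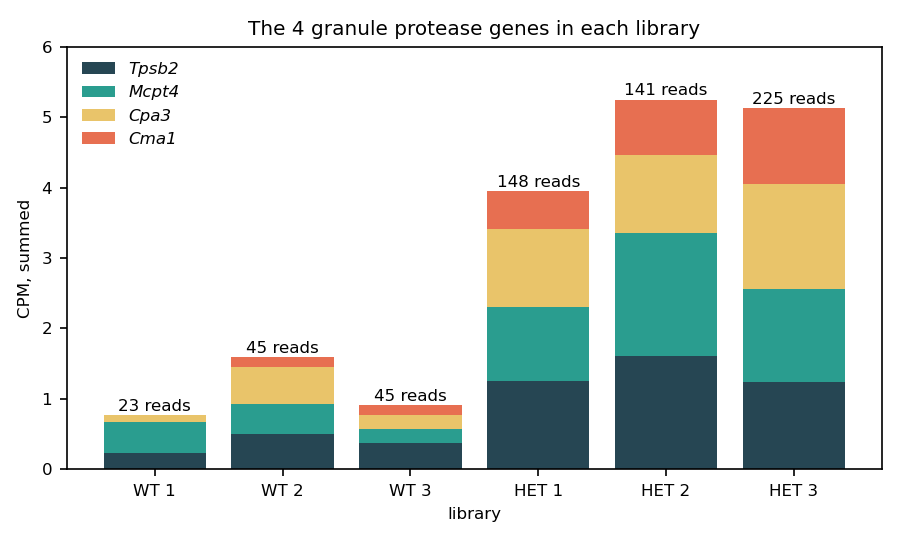
Summed normalized counts (CPM, y axis from 0) of *Tpsb2*, *Mcpt4*, *Cpa3* and *Cma1* in each library, with the total reads of the 4 genes written above each bar. The HET bars reach 3.95 to 5.25 CPM and the WT bars 0.769 to 1.60 CPM, and every gene's segment is taller in each HET bar than in any WT bar.

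*Kit* (ENSMUSG00000005672) encodes the receptor tyrosine kinase for stem cell factor, and besides mast cells, melanocytes and gut interstitial cells express it. It lies on the plus strand of chromosome 5 from 75574916 to 75656722, with 21 exons. It gave 77, 41 and 126 reads in the HET libraries and 67, 79 and 93 in the WT libraries. HET mouse 3 was the highest and HET mouse 2 the lowest of all 6 mice in CPM, with the WT mice between them. HET mice averaged 2.15 ± 0.677 CPM and WT mice 2.31 ± 0.463 CPM (SD, n = 3 each), and the log2 fold change was −0.07 (standard error 0.27).

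The FcεRI genes were read seldom. *Ms4a2* (ENSMUSG00000024680, chromosome 19, 11615523 to 11623719, minus strand), which encodes the signal-amplifying β chain, had 2, 0 and 7 reads in HET and 0, 1 and 1 in WT mice. *Fcer1a* (ENSMUSG00000005339, chromosome 1, 173221284 to 173227214, minus strand), which encodes the IgE-binding α chain, had 1, 1 and 5 reads in HET and 0, 0 and 1 in WT mice. HET mouse 3 held most of the reads of both genes, and without it *Ms4a2* had 2 reads in each genotype. Over the libraries of a genotype, *Ms4a2* had 9 reads in HET and 2 in WT mice, a ratio of CPM of 4.47 with a 95% counting interval of 0.925 to 42.5. *Fcer1a* had 7 reads in HET and 1 in WT mice, a ratio of 6.95 with an interval of 0.893 to 313. Both intervals hold a ratio of 1, so a difference was not detectable at this depth, and neither gene passed the filter on low counts.

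*Hdc* (ENSMUSG00000027360) encodes histidine decarboxylase, which makes histamine in mast cells and also in basophils and neutrophils. It lies on chromosome 2 from 126593667 to 126619299 on the minus strand. The HET libraries held 26, 19 and 28 reads and the WT libraries 18, 14 and 15. In CPM the HET mice were close together and just above the highest WT mouse. HET mice averaged 0.680 ± 0.0371 CPM and WT mice 0.468 ± 0.151 CPM (SD, n = 3 each), and the log2 fold change was 0.57 (standard error 0.37).

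*Gata2* (ENSMUSG00000015053) encodes a GATA factor needed for mast cell and basophil development, and endothelial cells express it too. It lies on the plus strand of chromosome 6 from 88193891 to 88207032. It gave 242, 237 and 345 reads in the HET libraries and 189, 238 and 567 in the WT libraries. WT mouse 3 was the highest and WT mouse 1 the lowest of the 6 mice in CPM, and the HET mice lay between them. HET mice averaged 7.72 ± 1.19 CPM and WT mice 8.75 ± 2.60 CPM (SD, n = 3 each), and the log2 fold change was −0.19 (standard error 0.21). Endothelial markers as a list of 10 genes also overlapped, with a summed level of 703 to 856.5 CPM in HET and 746.5 to 915.2 CPM in WT mice.

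No one HET mouse led all genes. Mouse 3 was the highest HET mouse for *Cma1*, *Cpa3*, *Kit*, *Ms4a2* and *Fcer1a*, and mouse 2 for *Mcpt4*, *Tpsb2*, *Hdc* and *Gata2*. The 7 genes tested had a biological coefficient of variation, the spread between mice beyond counting, of 0.188 to 0.306. Its median over all genes tested was 0.136. That median covers genes of every level, and no comparison was made with genes of a similar level. The median log2 fold change was 1.89 over the 7 tested genes, 2.10 over the 4 proteases and −0.02 over all genes tested.

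At an adjusted p below 0.05 in edgeR's quasi-likelihood test, 0 of the 7 tested genes were called higher in HET mice, where 21 of all genes, or 0.143%, were, and 0 were called lower, where 1 gene, or 0.0068%, was. At an unadjusted p below 0.05, the count was 4, the proteases, where 5.76% of all genes were higher. DESeq2's Wald test called the same 4 proteases at an adjusted p below 0.05, where it called 1.12% of the 17801 genes to which it gave an adjusted p. Without a filter on low counts, edgeR also called these 4, and 1.33% of 29081 genes. The genes were chosen for this contrast, so these counts only describe where they stood. The calls changed with the tool and the filter. Over all alternatives that could be fitted, the log2 fold change ran from 2.47 to 3.46 for *Cma1*, 1.65 to 2.18 for *Mcpt4*, 1.86 to 2.94 for *Cpa3* and 1.67 to 2.12 for *Tpsb2*, while *Kit* changed sign in 3 alternatives and *Gata2* in 1.

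**Figure D3:**
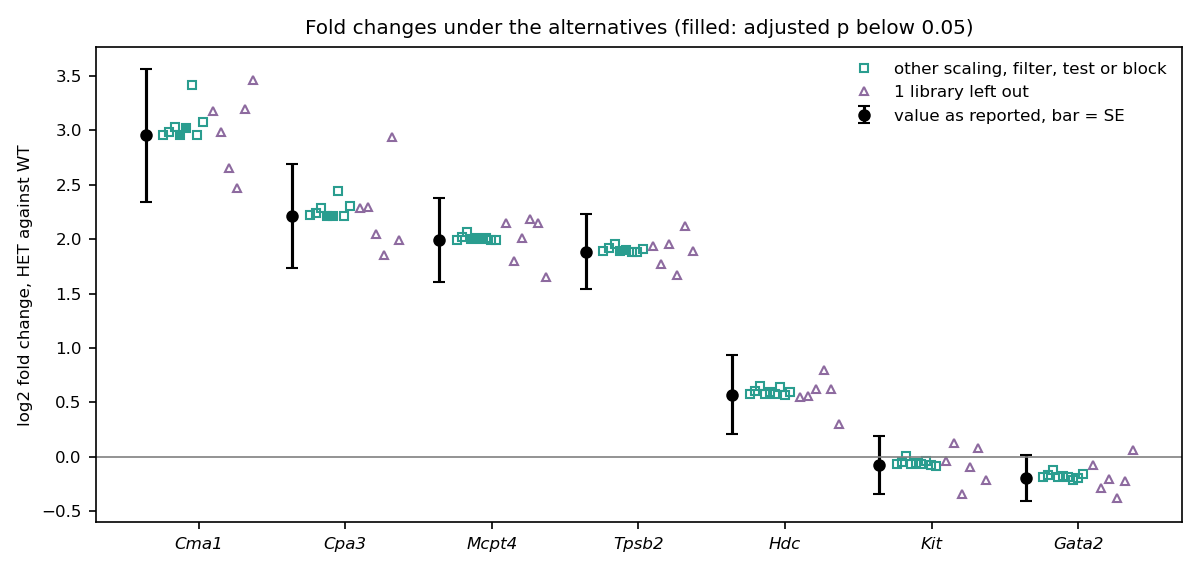
Log2 fold change of HET against WT mice for the 7 tested genes, as reported (black, bar = standard error), under other scaling, filters, tests and the replicate block (green squares) and with 1 library left out (purple triangles). Filled symbols mark an adjusted p below 0.05. The proteases stay between 1.65 and 3.46 and have filled symbols for DESeq2 and for no filter, and *Kit* and *Gata2* lie on both sides of 0.

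Relative to the length of the exons, the order of levels differed between the genotypes. In HET mice the level in CPM per kilobase of exon was 1.43 for *Gata2*, 1.39 for *Mcpt4* and 1.26 for *Tpsb2*, which differed by less than their spread between mice. *Cpa3* with 0.823 and *Cma1* with 0.741 came next and also lay within their spread of each other. *Kit* with 0.242 and *Hdc* with 0.107 followed, then *Fcer1a* with 0.0594 and *Ms4a2* with 0.0252. In WT mice *Gata2* stood alone at the top with 1.62 CPM per kilobase. *Mcpt4* with 0.358, *Tpsb2* with 0.338, *Kit* with 0.259, *Cpa3* with 0.184, *Cma1* with 0.0881 and *Hdc* with 0.0732 came after it, each within the spread of its neighbour. *Fcer1a* with 0.00677 and *Ms4a2* with 0.00660 were the lowest there too.

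Some reads of these genes could come from close relatives. Of the stretches of 50 bases in the reference transcripts, the length of a read, 5.38% of those of *Cma1* also stand in the transcript of *Gm48934* and 5.48% of those of *Mcpt4* in *Cma2* or *Mcpt9*. The share was 2.1% for *Ms4a2*, shared with *Ms4a4b*, 0.141% for *Hdc*, and 0 for *Cpa3*, *Tpsb2*, *Kit*, *Fcer1a* and *Gata2*.

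The other granule proteases were almost absent, and none passed the filter on low counts. The mucosal mast cell proteases *Mcpt1* and *Mcpt2* and the gene *Mcpt9* had no read in any library, which allows at most 0.112 CPM in the shallowest one (3 reads). *Tpsab1*, another mast cell tryptase gene, had 3, 0 and 7 reads in HET and 0, 1 and 1 in WT mice. *Tpsg1*, a membrane-bound tryptase, had 0, 1 and 1 reads in HET and 0, 0 and 1 in WT mice.

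Genes of basophils and cytotoxic granules among these proteases appeared mainly in HET mouse 3. *Prss34*, a basophil protease, had 0, 0 and 8 reads in HET mice 1 to 3 and no read in a WT mouse. *Gzmb*, the granzyme B gene of cytotoxic lymphocytes, had 0, 0 and 5 reads in HET and 0, 1 and 0 in WT mice. *Ctsg*, the cathepsin G gene of neutrophils and mast cells, had 0, 0 and 4 reads in HET and none in WT mice. The basophil protease gene *Mcpt8* had 1 read, in HET mouse 1.

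Among 49 further genes of mast cell biology, 25 could be tested and none was called by edgeR at an adjusted p below 0.05 in either direction. At an unadjusted p below 0.05, 12 were higher and 0 lower in HET mice, where 5.76% and 2% of all genes were. Of these 12, 9 were among the 13 genes listed as expressed by other leukocytes too, and 3 were among the other tested genes. For 12 of the 25 the lowest HET mouse exceeded the highest WT mouse, as it did for 7.55% of all genes, and the reverse held for 0, against 6.02%. Here too 9 of the 12 were among those 13 genes, and 3 were among the other tested genes. DESeq2 called 0 higher, against 1.12% of the genes it tested. Without a filter edgeR called 6 higher, *Il1rl1*, *Hpgds*, *Lcp2*, *Unc13d*, *Syk* and *Il33*, against 1.33% of all genes in that fit. The log2 fold changes of all 25 ran from −0.14 to 1.59 with a median of 0.33, and 21 of 25 were above 0, as were 45.6% of all genes tested.

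*Lcp2*, which encodes the adaptor SLP-76 of FcεRI and T cell receptor signalling, had the largest fold change of the 25. It gave 29, 22 and 67 reads in the HET libraries and 7, 14 and 16 in the WT libraries, with no overlap in CPM (log2 fold change 1.59, standard error 0.42, edgeR adjusted p = 0.225). *Hpgds*, the prostaglandin D2 synthase of mast cells and some macrophages, was read 28, 14 and 57 times in HET and 10, 12 and 8 times in WT mice (log2 fold change 1.57, standard error 0.48, edgeR adjusted p = 0.323). Neither passed the threshold, and macrophages express both.

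The 2 smallest values were those of *Srgn* and *Kitl*. *Srgn*, the proteoglycan core on which heparin is built, was at 15.3 ± 1.35 CPM (SD, n = 3) in HET and 16.9 ± 3.17 CPM (SD, n = 3) in WT mice (log2 fold change −0.14). *Kitl*, the gene of stem cell factor, was at 60.4 ± 7.51 CPM (SD, n = 3) in HET and 66.6 ± 9.43 CPM (SD, n = 3) in WT mice (log2 fold change −0.14). Both overlapped between the genotypes, as did *Kit*, the receptor of stem cell factor.

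By role, the eicosanoid enzymes and the signalling genes had the highest values of the roles with more than 2 tested genes. All 5 eicosanoid genes had values above 0, with a median of 1.11, and so had all 7 tested signalling and secretion genes, with a median of 0.76. Over all genes tested, 45.6% were above 0. Apart from *Ltc4s* and *Rab27b*, the tested genes of these roles are all listed as expressed by other leukocytes too. *Il1rl1*, the receptor for the alarmin interleukin-33, gave 53, 40 and 42 reads in the HET libraries and 20, 9 and 21 in the WT libraries (log2 fold change 1.44, standard error 0.36, edgeR adjusted p = 0.197). *Il33* itself was read 163, 99 and 273 times in HET and 70, 79 and 146 times in WT mice (log2 fold change 0.82, standard error 0.22, edgeR adjusted p = 0.240). In both, the HET and WT mice did not overlap in CPM, and neither passed the threshold. The transcription factor genes *Mitf* and *Tal1* had log2 fold changes of −0.10 and 0.21 and overlapped between the genotypes.

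The 13 of these genes that other leukocytes also express had a median log2 fold change of 0.69, with 12 above 0. The 12 others that were tested had a median of 0.22, with 9 above 0. These others are not a list specific to mast cells, as they include growth factors for mast cells and targets of mast cell products. The split rests on the list of 13 alone, and expression of the others in other leukocytes was not examined.

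**Figure D4:**
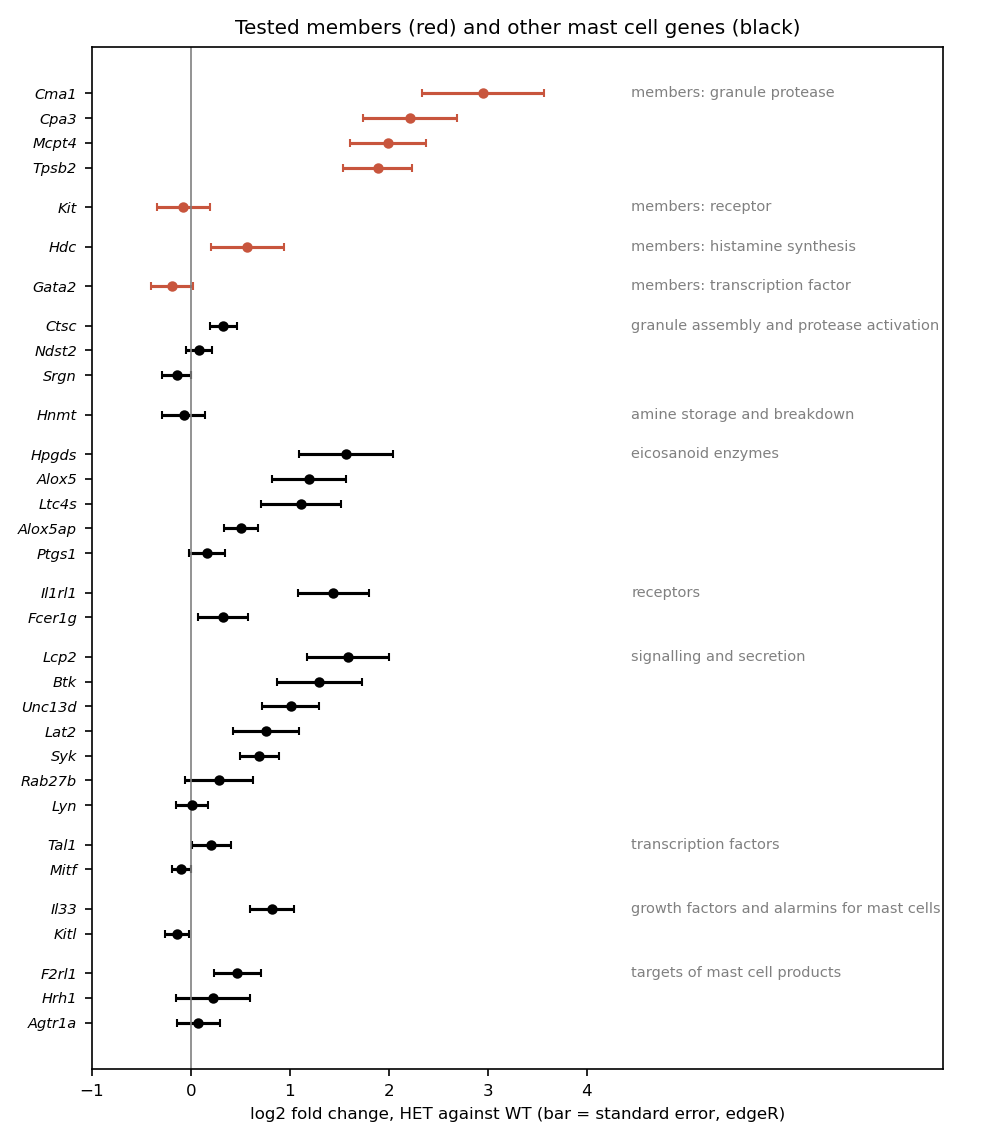
Log2 fold changes (HET against WT mice, x axis, bar = standard error from edgeR) of the 7 tested genes of the set (red) and the 25 other tested mast cell genes (black), grouped by role. The proteases lie between 1.89 and 2.95, all above the highest black point, 1.59 for *Lcp2*, and *Kit* and *Gata2* lie at −0.07 and −0.19.

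Markers of some other cells also stood higher in HET mice. A list of 15 macrophage markers summed to 100.7 to 143.7 CPM in HET and 56.36 to 66.46 CPM in WT mice, with 14 of 15 log2 fold changes above 0, a median of 1.29 and 5 past the threshold. Over all genes tested, 45.6% were above 0 and 0.143% were called higher. The 10 fibroblast markers summed to 2539 to 3615 CPM in HET and 1166 to 1970 CPM in WT mice, all 10 above 0 and 1 past the threshold. The 8 tendon markers summed to 372.3 to 663.9 CPM in HET and 120.3 to 299.6 CPM in WT mice, all 8 above 0 and 0 past the threshold. In these 3 lists the HET and WT ranges did not overlap, and no gene of any of them was without a read. Their part in the difference of the protease genes was not tested.

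The 9 mast cell markers beyond the set summed to 24.07 to 25.45 CPM in HET and 22.27 to 25.93 CPM in WT mice, a sum made mostly of *Mitf* (21.0 and 22.4 CPM on average), which muscle fibers and other cells also express. Of these 9, 4 could be tested, with a median log2 fold change of 0.86 and 0 past the threshold. Their values were 1.57 for *Hpgds*, 1.44 for *Il1rl1*, 0.29 for *Rab27b* and −0.10 for *Mitf*. So 3 of the 4 were above 0, as were 45.6% of all genes tested. The mast cell receptor gene *Mrgprb1* had 4, 7 and 19 reads in HET and 1, 5 and 4 in WT mice, and *Mrgprb2* had at most 2 in any library. The 4 basophil markers summed to 1.87 to 2.348 CPM in HET and 1.438 to 1.738 CPM in WT mice, of which *Il3ra* gave most reads. Of the basophil genes *Cd200r3* had at most 2 reads in any library. Adipocyte, T and NK, neutrophil, Schwann, melanocyte, skin and muscle fiber lists overlapped between the genotypes. The sum of the 4 B cell markers was higher in every HET mouse, with 3.846 to 4.512 CPM against 2.199 to 2.943 CPM. Of these 4, only 1 had enough reads to be tested, *Ighm*. It did not pass the threshold (log2 fold change 0.71, edgeR adjusted p = 0.232).

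**Figure D5:**
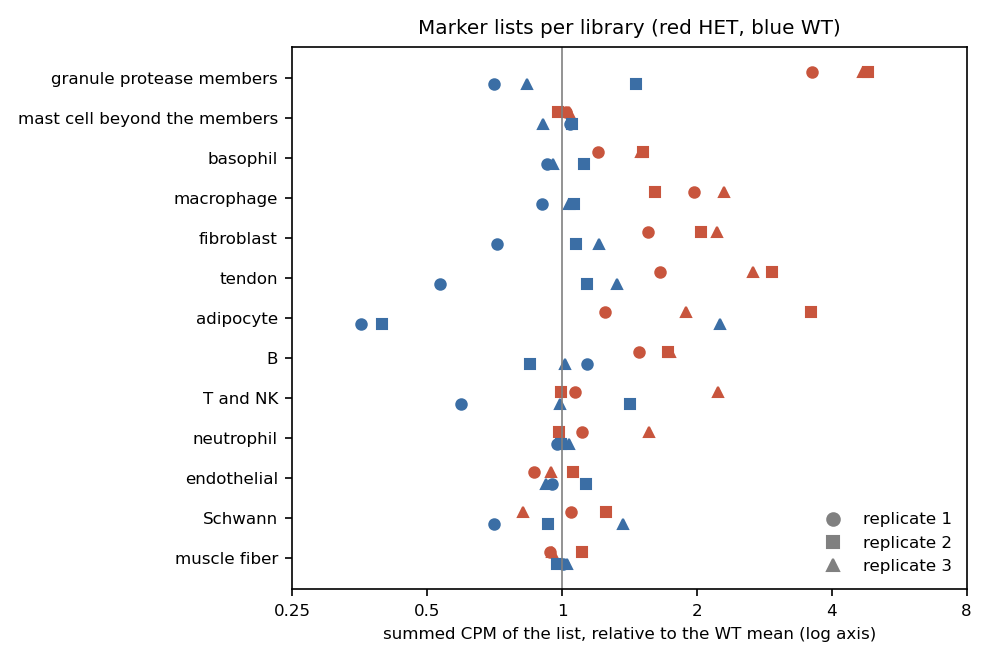
Summed CPM of each marker list per library, relative to the mean of the WT libraries (log axis), HET in red and WT in blue, with marker shape for the replicate number. The 4 granule proteases, basophil, macrophage, fibroblast, tendon and B cell markers lie above every WT library in all HET mice, adipocyte markers vary most within a genotype, and the endothelial, muscle fiber and other mast cell lists lie around 1. The sum of the other mast cell list is made mostly of *Mitf*.

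*Cma1* and *Mcpt4* share chromosome 14 with the targeted gene, at 25.06 and 25.18 Mb from *Mustn1*, while the other 7 genes are on other chromosomes. Within 500 kb of *Cma1*, leaving out the set itself, 27 of 58 other genes were tested by edgeR. At an adjusted p below 0.05, 0 were called, and the smallest unadjusted p was 0.0534, for *Nfatc4*. Over all genes tested 0.15% were called in either direction, so a call among so few genes was unlikely in any case. Of the 27, 16 were above 0, against 45.6% of all genes tested. The lowest HET mouse exceeded the highest WT mouse for 1 of them, against 7.55%. The log2 fold changes of the 27 ran from −0.13 (*Nedd8*) to 0.38 (*Carmil3*) with a median of 0.05. Within 500 kb of *Tpsb2* on chromosome 17, 36 of 59 other genes were tested and 0 were called, again against 0.15% of all genes, the smallest unadjusted p being 0.0203, for *Ptx4*. Of these 36, 15 were above 0. In CPM, 1 was higher and 1 lower in every HET mouse, against 7.55% and 6.02% of all genes tested. The values there ran from −0.18 (*Haghl*) to 1.0 (*Ptx4*) with a median of −0.02.

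The genes whose pattern over the 6 libraries was nearest to the mean pattern of the 7 tested genes were *Arc*, *Tyrobp*, *Zbtb7c*, *Cacnb3*, *Cacnb4*, *Tnc*, *Antxr1*, *Rcn1*, *Incenp* and *Glipr2*. Likeness was the root mean square difference between log2 CPM profiles scaled to mean 0 and SD 1, over 6 libraries. The mean pattern holds the difference between the genotypes with which the set was chosen, so this ranking favours genes higher in HET mice. Among so many genes, close matches over 6 libraries can arise without any link, and a link was not tested. It was 0.0884 for *Arc*, an immediate early gene, 0.0988 for *Tyrobp*, the DAP12 adaptor of macrophages and natural killer cells, and 0.192 for *Glipr2*, with a median of 1.477 over all genes tested. The proteases themselves lay at 0.174 (*Cpa3*) to 0.482 (*Mcpt4*) from the mean pattern of which they are part. *Hdc* was at 0.869, *Kit* at 1.36 and *Gata2* at 1.48, the last of these no nearer than the median gene.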

How the data were processed

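Soleus RNA of 3 HET and 3 WT mice was sequenced as poly-A selected, stranded libraries with single 50-base reads. Per the labels and the submitters' processing notes, the authors aligned reads with STAR 2.7.3a to GRCm38.p6 and made the deposited raw counts per gene with featureCounts 2.0.3 in its reverse-stranded mode. The authors also deposited a normalized signal, the count divided by a DESeq2 size factor per library (0.773 to 1.42), for 16247 genes, which served only to find the genes. Another deposited table holds the authors' own comparison (log2 fold changes, standard errors, p-values and adjusted p-values) and was not used. No value column was left without a sample.

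The members and lists were chosen with earlier results of these data known. From the raw counts, genes passing filterByExpr (minimum count 10) were tested in R 4.3.3 with edgeR 4.0.16, with TMM factors, a robust quasi-likelihood fit on genotype alone, two-sided p-values and Benjamini-Hochberg adjustment over 14696 genes. Alternatives used limma 3.58.1 (voom), DESeq2 1.42.0, other scaling and filters, a replicate block and each mouse left out. Python 3.11.15 served for tables and plots, with pandas 2.3.3, SciPy 1.17.1 and matplotlib 3.10.9. The edgeR, DESeq2, limma-voom and replicate block fits were tested on simulated counts.

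Genes named were the 9 of the set, label checks, all other granule proteases, any other mast cell gene past the threshold, the 2 with the largest and the 2 with the smallest fold change among the others, genes near *Cma1* or *Tpsb2* (given as counts with their ends), and the 10 nearest profiles. Other genes named were chosen after their values were seen. Gene starts and ends are those of the count table, which differ from GENCODE M21 for *Cma1*, *Mcpt4* and *Tpsb2*; exon numbers, the comparison of 50-base stretches and the promoter windows use GENCODE M21 and RefSeq. Intervals on ratios of reads are exact binomial intervals at 95%. With 3 mice against 3, the smallest p of a two-sided exact permutation test is 0.1, so none was run. Libraries held 26790075 to 50368796 reads on genes.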

Additional observations from a re-analysis of the deposited data

How the results depend on the processing

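The 4 protease genes kept a positive log2 fold change under every alternative that could be fitted, between 2.47 and 3.46 for *Cma1*, 1.65 and 2.18 for *Mcpt4*, 1.86 and 2.94 for *Cpa3* and 1.67 and 2.12 for *Tpsb2*. Their edgeR adjusted p was between 0.0785 and 0.123. DESeq2 gave an adjusted p between 0.00579 and 0.00771 and edgeR without a filter one between 2.77e-05 and 0.000377, so that 4 members were called higher under each of these in place of 0, and 6 of the other mast cell genes in place of 0 without a filter. *Hdc* stayed between 0.30 and 0.80. *Kit* changed sign with library totals only (0.0074), without HET mouse 2 (0.12) and without WT mouse 2 (0.08), with a range of −0.34 to 0.12 when 1 mouse was left out. *Gata2* changed sign without WT mouse 3, with a range of −0.38 to 0.062. A minimum of 10 reads in every library left *Mcpt4* alone among the proteases. Over all genes, 21 were called higher and 1 lower. The counts were 386 and 18 without a filter, 200 and 10 with DESeq2, 3 and 0 with limma-voom, 6 and 0 with non-robust dispersion, and 0 to 77 and 0 to 6 with 1 mouse left out, the highest without WT mouse 3. Deviations of same-numbered mice correlated at 0.20, −0.01 and −0.03, the first being the highest of any HET and WT combination. These values cannot show whether same-numbered mice were paired. With the replicate block 114 genes were higher and 2 lower, and no member was called. The cause of these shifts was not tested. With 23 to 45 protease reads in a WT library, depth limits the precision of every protease ratio.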
